A study of Caenorhabditis elegans with 6 samples.

Results

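The 10 abu genes described here were abu-1, abu-5, abu-6, abu-7, abu-8, abu-10, abu-11, abu-13, abu-14 and abu-15 of Caenorhabditis elegans. They were picked by name from a gene family, with measured ratios of CPF over control from these same arrays already known, so their ratios and calls below are a description and carry no test. Every probe whose sequence name maps to one of these genes was taken, which gave 15 probes of 22490 gene probes on the array, and 10 genes of 18865. All 15 probes passed the filter on dim signal, which 11033 probes of 9947 genes passed in all.

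Whole N2 nematodes grown at 24 °C on agar with E. coli OP50 were exposed to chlorpyrifos (CPF) at 0.5 mg/l, a pesticide of the organophosphorus class that blocks acetylcholinesterase, or, as control, to its solvent acetone at an equivalent concentration by the labels. Each of 6 dual-channel arrays carried 1 CPF and 1 control sample, with CPF labelled in Cy5 on 3 arrays and in Cy3 on the other 3. The labels give the animals an age of 72 h and call them L3 in one place and L3/L4 in another, while a shorter time stands in the methods, which is not settled here.

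The abu genes encode secreted proteins rich in glutamine and asparagine with cysteine-rich repeats. They were named for being activated when the unfolded protein response of the endoplasmic reticulum is blocked, and were later found to be expressed in the pharynx, the feeding organ, in waves that go with the molts, where the proteins belong to the chitin-containing cuticle that lines its lumen. Separate roles of the single members are mostly not known, so none is given below. Several are close paralogs, and a probe of one may bind RNA of another, which makes the values of near-identical members uncertain. Probe and protein sequences were not used here.

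The direction of all ratios follows the labels of the scanner files. The deposited table of log2 ratios goes the other way. Each of its columns matched best, not the array of its own label, but the array with the same replicate number and the opposite dye orientation. Across 3363 bright probes, log2 Cy5 over Cy3 of the CPF in Cy3 arrays correlated at 0.902, 0.983 and 0.997 with columns that the table labels CPF in Cy5. The CPF in Cy5 arrays correlated at -0.994, -0.966 and -0.9998 with columns that it labels CPF in Cy3. If the labels of the table hold and not those of the scanner files, every "higher" and "lower" below turns round. The files do not settle which of them holds.

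By the scanner labels, the abu genes had mostly higher signal in CPF nematodes than in control nematodes, by a modest amount and with a large spread between arrays. Of the 15 probes, 14 had a fitted ratio above 0, and ratios ran between -0.01 and 1.47 on the log2 scale. With the brightest tested probe standing for a gene, the median over the 10 genes was 0.39, against 0.01 over all tested genes, of which 50.9% had a positive ratio. In the limma fit across all tested probes (adjusted p under 0.05), 5 of the 15 probes were called higher in CPF and 0 lower, beside 1.33% of all tested probes called higher and 2.17% called lower. At an unadjusted p under 0.05 the counts were 11 higher and 0 lower, beside 15.9% and 11.5% of all tested probes. By brightest probe, 1 of the 10 genes (abu-5) was called higher and 0 lower, beside 0.965% of all tested genes called higher. The calls hung on single arrays. With either CPF in Cy5 replicate 1, CPF in Cy5 replicate 2 or CPF in Cy3 replicate 2 left out there were 0 genes and 0 probes called, whereas 2 genes and 7 probes were called when CPF in Cy3 replicate 1 was dropped, and 1 gene and 2 probes when CPF in Cy5 replicate 3 was. The gene median stayed between 0.25 and 0.56 and the abu-5 ratio between 0.92 and 1.37 with any 1 array left out. The calls over all probes fell as well, to 3, 5 and 7 higher for the arrays whose omission left no abu call, against 147 on all 6 arrays. They rose to 418 higher without CPF in Cy3 replicate 1 and fell to 24 without CPF in Cy5 replicate 3. Because the genes were picked with this contrast known, nothing follows from these counts. In whole animals, fewer cells of a type and less RNA per cell cannot be told apart.

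**Figure D1:**
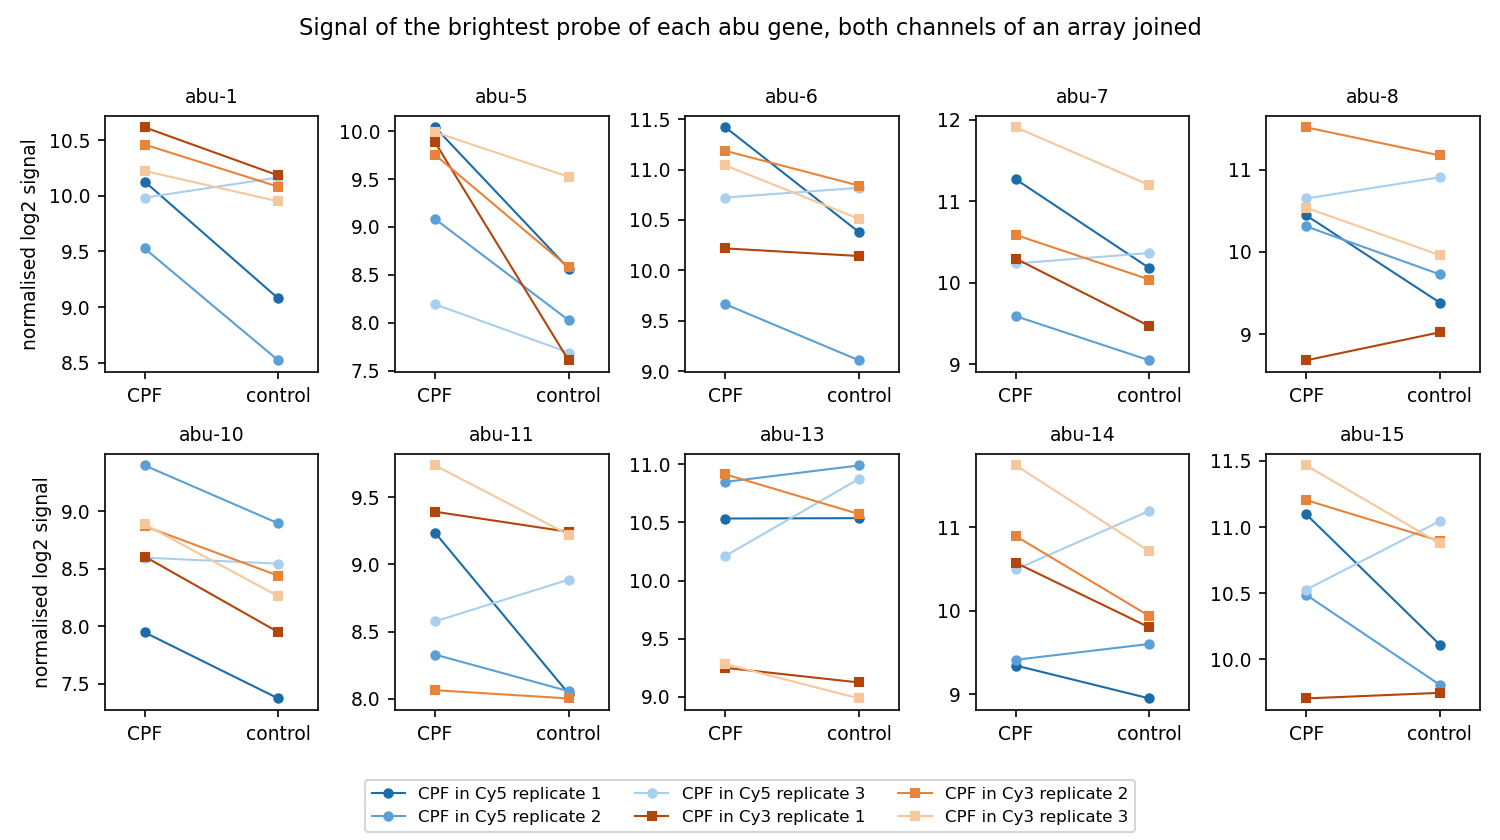
Normalised log2 signal of the brightest probe of each of the 10 abu genes in the CPF (left) and control (right) channel, with the 2 channels of an array joined by a line, circles for CPF in Cy5 and squares for CPF in Cy3. Each panel has its own axis, since levels of different probes cannot be compared. The CPF end of the line is the higher one on all 6 arrays for abu-5 and abu-10, and on 3 of 6 for abu-13.

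abu-5 (Y105C5A.4; chromosome IV, 15590697 to 15591772 in WBcel235) was the gene with the highest ratio by brightest probe. Its normalised log2 signal had a lowest, median and highest value of 8.19, 9.82 and 10.04 in the CPF channels, against 7.61, 8.30 and 9.52 in the control channels. The channels overlapped between groups, because arrays differed in overall brightness at this spot, but on each array CPF was the brighter channel. Its log2 ratio was 1.47, 1.06 and 0.50 on the CPF in Cy5 arrays and 2.28, 1.17 and 0.46 on the CPF in Cy3 arrays (replicates 1 to 3 in both cases). The fitted ratio was 1.16 ± 0.23 (moderated SE, 6 arrays), a fold of 2.23. All 6 CPF channels were above background at this probe, but only 3 of the 6 control channels.

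abu-10 (F35A5.3; chromosome X, 3798182 to 3799741) varied least between arrays. Its signal was 7.95, 8.74 and 9.40 in the CPF channels (lowest, median, highest), against 7.37, 8.35 and 8.89 in the control channels. The ratios were 0.57, 0.50 and 0.05 with CPF in Cy5 and 0.66, 0.43 and 0.62 with CPF in Cy3. All 6 were positive, 5 of them close together and 1 near 0. The fitted ratio was 0.47 ± 0.11, which the fit did not call.

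abu-11 (T01D1.6; chromosome II, 192509 to 194558) rested largely on 1 array. Its signal was 8.06, 8.91 and 9.74 in the CPF channels, against 8.0, 8.47 and 9.24 in the control channels. The ratio was 1.2 on CPF in Cy5 replicate 1 and lay between -0.31 and 0.52 on the remaining arrays, for a fitted value of 0.31 ± 0.18. Without that array the fitted value was 0.11.

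abu-13 (F57B9.9; chromosome III, 6941888 to 6945898) was the gene with the fitted ratio nearest 0, at -0.01 ± 0.12. Its signal was 9.25, 10.37 and 10.91 in the CPF channels, against 8.99, 10.55 and 10.99 in the control channels. The ratios were -0.00, -0.14 and -0.66 with CPF in Cy5 and 0.13, 0.34 and 0.30 with CPF in Cy3, so that the 2 dye orientations lay on opposite sides of 0. abu-14 (ZK1067.7; chromosome II, 9225186 to 9227214) split in a like way. Its signal was 9.35, 10.53 and 11.74 in the CPF channels, against 8.95, 9.87 and 11.20 in the control channels. The ratios were 0.39, -0.19 and -0.70 with CPF in Cy5 and 0.77, 0.95 and 1.03 with CPF in Cy3, for a fitted value of 0.38 ± 0.15.

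The dye orientation was not used to choose the genes, and its term in the same fit could be tested. It was called for 0 of the 15 probes (limma, adjusted p under 0.05), beside 0.00906% of all tested probes, and 1 of the 15 had an unadjusted p under 0.05, beside 9.89% of all tested probes. That probe was abu-14, with a dye term (log2 Cy5 over Cy3) of -0.54 ± 0.15 and an adjusted p of 0.477 in limma. For abu-13 the dye term was -0.26 ± 0.12 with an adjusted p of 0.507 in limma. The different ratios of these genes in the 2 orientations thus did not pass the threshold after adjustment over all tested probes. Before adjustment the dye term had a p of 0.0054 for abu-14 and 0.055 for abu-13 in limma.

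Both probes of abu-1 (AC3.3; chromosome V, 10380340 to 10381826) had a positive fitted ratio, of quite different size. At the brightest probe the signal was 9.53, 10.17 and 10.61 in the CPF channels, against 8.52, 10.02 and 10.18 in the control channels. Its ratios were 1.05, 1.00 and -0.18 with CPF in Cy5 and 0.43, 0.38 and 0.27 with CPF in Cy3, and the fit gave 0.49 ± 0.17. At the second probe the signal was 8.45, 10.10 and 10.43 in the CPF channels, against 7.35, 8.22 and 9.51 in the control channels. The second probe's ratios were positive on all 6 arrays, at 1.70, 1.34 and 0.39 with CPF in Cy5 and 3.09, 1.5 and 0.82 with CPF in Cy3. Its fitted value of 1.47 ± 0.28, a fold of 2.77, was the highest of the 15 probes and was called. All 12 channels were above background at the brightest probe, against 6 CPF and 3 control channels at the second.

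The 4 genes abu-15, abu-6, abu-7 and abu-8 lie within 36 kb of chromosome V (5158602 to 5194608). Of the other 6 protein-coding genes in that stretch, 5 were too dim to test, and ugt-51, which encodes a predicted UDP-glucuronosyltransferase, was called lower in CPF at -0.67 ± 0.15 (limma, adjusted p 0.0486). abu-6 (C03A7.7) had signals of 9.66, 10.88 and 11.42 in the CPF channels, against 9.11, 10.45 and 10.84 in the control channels, and a fitted ratio of 0.41 ± 0.15. abu-7 (C03A7.8) had signals of 9.59, 10.44 and 11.91 in the CPF channels, against 9.05, 10.11 and 11.20 in the control channels, and a fitted ratio of 0.60 ± 0.16. Both had positive ratios on 5 of 6 arrays, with CPF in Cy5 replicate 3 as the exception (-0.10 for abu-6, -0.13 for abu-7).

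abu-8 (C03A7.14) was measured by 3 probes. The brightest had signals of 8.68, 10.49 and 11.52 in the CPF channels, against 9.02, 9.84 and 11.17 in the control channels, and ratios of 1.06, 0.58 and -0.26 with CPF in Cy5 and -0.34, 0.34 and 0.58 with CPF in Cy3. The second had signals of 8.56, 9.76 and 10.76 in the CPF channels, against 7.44, 9.19 and 9.95 in the control channels, and was below 0 only on CPF in Cy5 replicate 3, at -0.19. The third had signals of 8.62, 9.31 and 11.24 in the CPF channels, against 6.84, 8.24 and 10.25 in the control channels, and was positive on every array, between 0.42 and 2.63. The fitted ratios of these probes were 0.33 ± 0.19, 0.79 ± 0.17 and 1.14 ± 0.21, and only those of the second and the third were called. Control channels above background numbered 6, 5 and 3 in the same order, with 6 CPF channels at each.

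abu-15 (C03A7.4) was also measured by 3 probes. The brightest had signals of 9.70, 10.81 and 11.47 in the CPF channels, against 9.75, 10.49 and 11.04 in the control channels, and ratios of 0.98, 0.68 and -0.52 with CPF in Cy5 and -0.04, 0.31 and 0.59 with CPF in Cy3. The second had signals of 7.78, 9.65 and 9.91 in the CPF channels, against 6.87, 8.51 and 9.36 in the control channels. The third had 6.31, 8.08 and 8.70 in the CPF channels, against 6.02, 7.0 and 7.72 in the control channels. Ratios of the second and the third were positive on all 6 arrays. The fitted values were 0.33 ± 0.19, 0.92 ± 0.16 and 0.73 ± 0.17, and only that of the second was called. At the third probe 5 CPF channels and 1 control channel were above background, so its control level is close to the limit of what the array measures and its ratio moved with the background handling. Its fitted value was 0.46 without background correction and 1.37 with plain subtraction, under which it was called (limma, adjusted p 0.0187) and the second probe was not (1.2, adjusted p 0.0523).

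**Figure D2:**
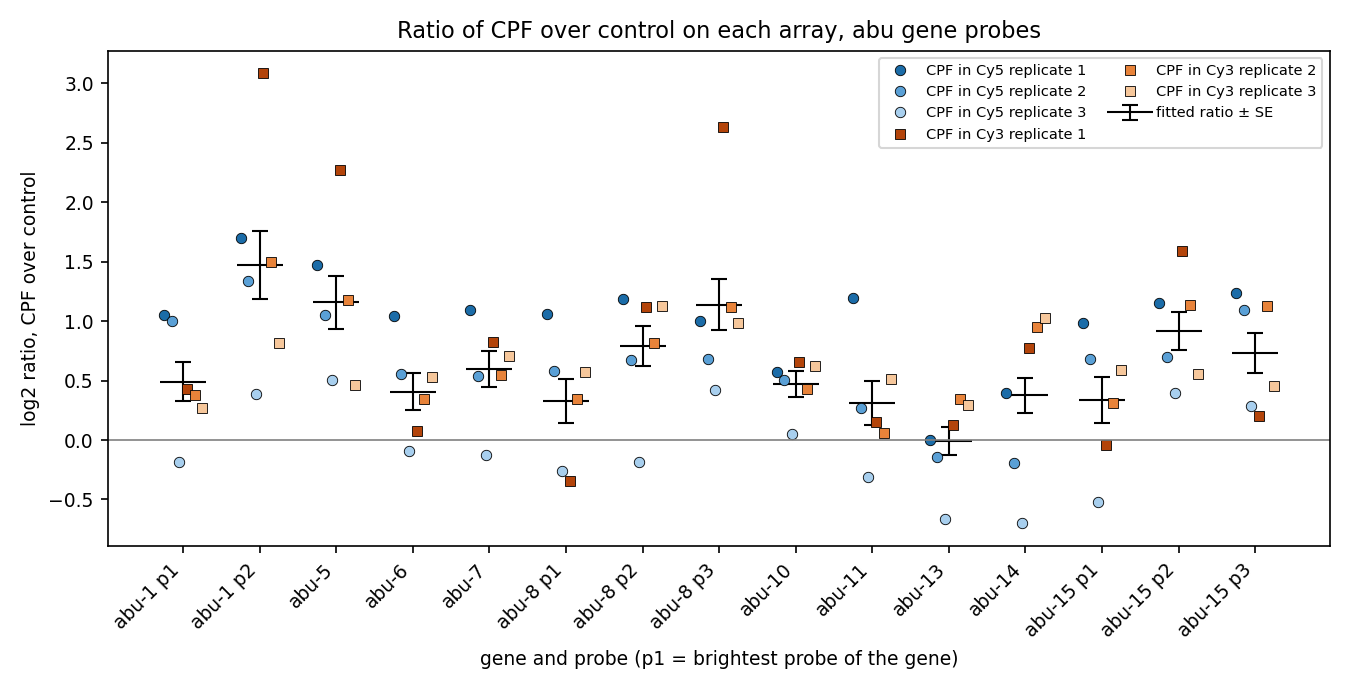
Log2 ratio of CPF over control of the 15 abu probes on each of the 6 arrays (circles, CPF in Cy5; squares, CPF in Cy3), with the fitted ratio and its moderated SE as a bar. 6 probes are above 0 on all arrays, and CPF in Cy5 replicate 3 is the lowest point for 12 of the 15.

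In all 3 genes with several probes, the dimmer probes gave higher fitted ratios than the brightest one. The difference of the second probe of abu-1 from its first was 0.98 ± 0.86 (SD over 6 arrays) and had the same sign on 6 of 6 arrays. For the second and the third probe of abu-8 it was 0.46 ± 0.53 and 0.81 ± 1.11, on 6 and 5 of 6 arrays. For those of abu-15 it was 0.59 ± 0.65 and 0.40 ± 0.37, on 5 of 6 arrays each. Without CPF in Cy3 replicate 1, on which the probes of a gene lay farthest apart, the 5 differences were 0.64, 0.26, 0.38, 0.38 and 0.43 in the same order. Such differences were not particular to the family. Among genes of the lists given below, most dimmer tested probes lay above the brightest probe of their gene. Examples are pan-1 (0.27 and 0.67, against -0.31 at the brightest) and pdi-2 (0.59 against -0.10). Dimmer tested probes were lower for act-4 (-0.19 against 0.36), pqn-75 (-0.41 and -0.07 against 0.59) and ssp-16 (0.77 against 1.11). So was a dimmer probe of pqn-70 (0.27 against 0.37). At an unadjusted p under 0.05, 15.9% of all tested probes were higher, against 13.2% of genes by brightest probe. The 5 called probes of the family all had control channels below background on some arrays, and of the 9 probes above background in all 12 channels none was called. Whether the low control signal takes part in these ratios was not tested. With the mean of all tested probes of a gene, 4 of the 10 genes were called higher, beside 1.19% of all tested genes under the same summary, and with the dimmest tested probe 3, beside 1.17%.

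**Figure D3:**
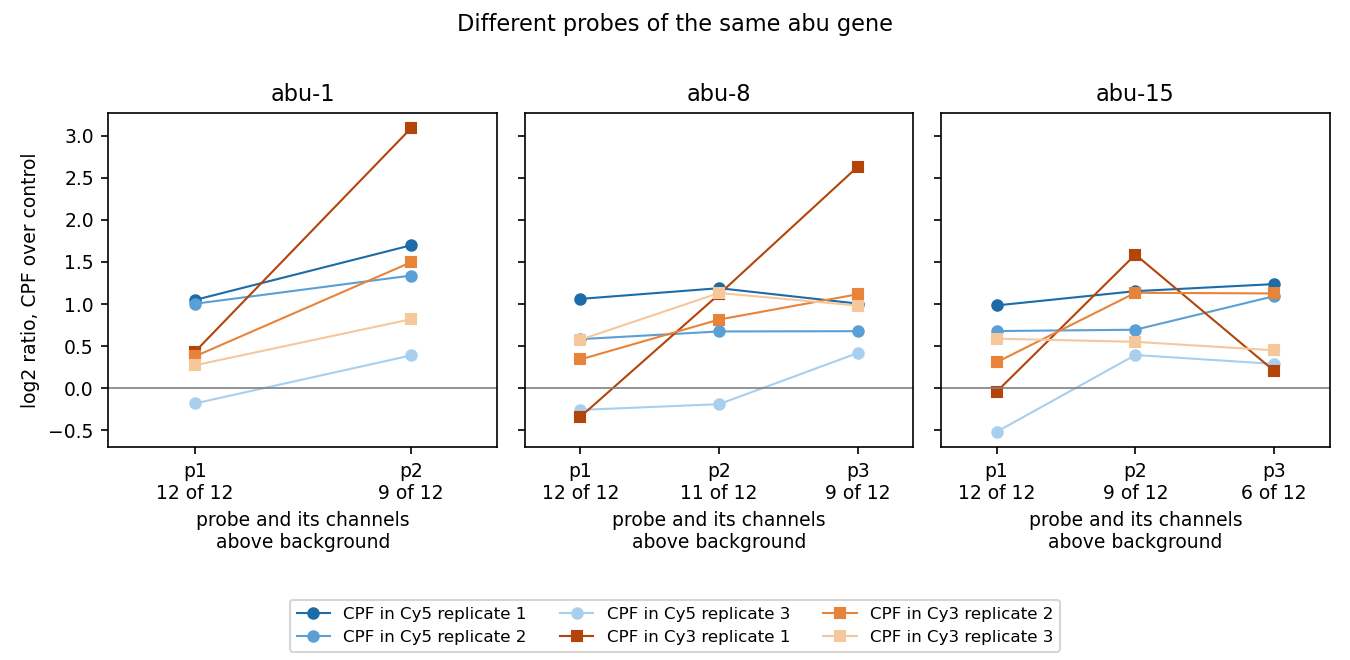
Log2 ratio of CPF over control for each probe of abu-1, abu-8 and abu-15, ordered from the brightest probe (p1), with the number of the 12 channels above background under each. A line joins the probes on 1 array. The lines of CPF in Cy3 replicate 1 reach 3.09 for abu-1 and 2.63 for abu-8.

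The abu genes varied widely from array to array. The median ratio over the 10 genes was 1.04, 0.55 and -0.22 on the CPF in Cy5 arrays and 0.29, 0.36 and 0.55 on the CPF in Cy3 arrays. CPF in Cy5 replicate 3 was the lowest array for 12 of the 15 probes, against 16.0% of all tested probes, and 9 of the 15 were negative on it. CPF in Cy5 replicate 1 was the highest array for 8 of the 15 probes, against 11.3% of all tested probes. CPF in Cy3 replicate 1 was the highest for 5, against 35.8% of all tested probes. That array stood apart as a whole, with an SD of ratios of 0.900 (0.424 to 0.468 on the others), a Cy5 detector setting of 60 (55 on the others), and 56.1% of probes above background in the CPF channel, against 38.3% in the control channel. Without it the median over the genes was 0.46, and without CPF in Cy5 replicate 1, the array with the highest median, it was 0.25. No abu probe was saturated. 6 of the 15 probes had a positive ratio on all 6 arrays, beside 8.45% of all tested probes.

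Pairs of probes of the family mostly had a positive correlation from array to array, but the probes did not all move as a group. Over the 105 pairs of probes the median Pearson correlation across the 6 arrays was 0.54, with a range of -0.40 to 0.98 and 97 pairs above 0, where the points share the arrays and near-identical genes may share RNA. Against the median of the other genes of the family, the correlation was highest for abu-11 (0.95), the brightest probe of abu-15 (0.92) and abu-6 (0.92), and lowest for abu-5 (0.15), the second probe of abu-1 (0.16) and the third of abu-8 (0.19). Those last 3 were the probes with the highest fitted ratios. They and the second probe of abu-15 correlated at 0.86 to 0.98 with one another. With abu-6 and the brightest probes of abu-8 and abu-15 they correlated at only -0.40 to 0.14. All of them were called, and each had its highest ratio on CPF in Cy3 replicate 1. 7 of the 15 spots had the same place within their print block (array column 1, spot row 5, spot column 2). Taken over the arrays, the median ratio of the neighbouring spots lay between -0.10 and 0.31, highest around the third probe of abu-15. On single arrays it ran from -0.44 around the brightest probe of abu-8 to 0.79 around abu-6.

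Outside the family, 10 genes had array profiles most like the median of the abu genes over the 6 arrays, with correlations between 0.960 and 0.987, against a 5th to 95th percentile of -0.66 to 0.66 over all other tested probes. They were rpa-2, gpc-1, F53E4.1, pkc-2, ugt-28, R03C1.2, lagr-1, swt-3, idpc-6 and pqn-90. The likeness is one of shape and not of level, and 7 of the 10 had fitted ratios below 0, such as rpa-2 at -0.13 ± 0.10. Fitted ratios above 0 were found for pqn-90, another gene of the glutamine- and asparagine-rich class, at 0.65 ± 0.17, for idpc-6 at 0.39 ± 0.20 and for R03C1.2 at 0.32 ± 0.18.

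Of the abu genes outside the 10, abu-12 was tested, with a ratio of 0.21 ± 0.13, and abu-2 and abu-3 were too dim to test. Of 51 pqn genes, which share the glutamine- and asparagine-rich stretches with the abu genes, 32 were tested. 1 was called higher and 0 lower in limma (11 and 3 at an unadjusted p under 0.05, beside 13.2% higher and 12.2% lower of all tested genes), with a median of 0.13. The called one was pqn-96 (0.67 ± 0.12), and the next by p was pqn-91 (1.00 ± 0.24, not called at its brightest probe). A dimmer tested probe of pqn-91 had 1.28 ± 0.28 and was called higher (limma, adjusted p 0.0490). Genes of the pharyngeal cuticle and gland other than abu genes, such as the phat genes and the chitin synthase gene chs-2, mostly had fitted ratios below 0. Of 11 tested, 0 were called in limma (0 higher and 1 lower at an unadjusted p under 0.05), and the median was -0.08. The sign of that median was not stable, with -0.45 to 0.59 on single arrays and -0.26 to 0.15 over the alternative settings. A positive ratio was found for 2, idpc-1 at 0.32 ± 0.19 and chs-2 at 0.08 ± 0.17. The gene idpc-6, named above for its profile, shares the idpc name but was not on this list, and had 0.39 ± 0.20. On the list, the smallest p belonged to pgp-14, a transporter of the P-glycoprotein class, at -0.47 ± 0.19 and phat-3 at -0.68 ± 0.31. Of 9 tested genes of pharyngeal muscle and identity, 0 were called (1 higher and 0 lower at an unadjusted p under 0.05) and the median was 0.03. Among them pax-1 had 1.18 ± 0.27, and pha-4, the selector gene of the pharynx, -0.35 ± 0.16. The difference between these lists and the abu genes was not tested.

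The unfolded protein response genes, whose blocked pathway gave the abu genes their name, had 0 of 23 tested genes called in limma, with 0 higher and 7 lower at an unadjusted p under 0.05 and a median of -0.16. A positive ratio was found for 7 of the 23. xbp-1, a transcription factor of the pathway, had -0.44 ± 0.10, and ckb-2 had -0.36 ± 0.11. The chaperone gene hsp-4, the usual reporter of the pathway and named here after its value was seen, had -0.42 ± 0.15.

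**Figure D4:**
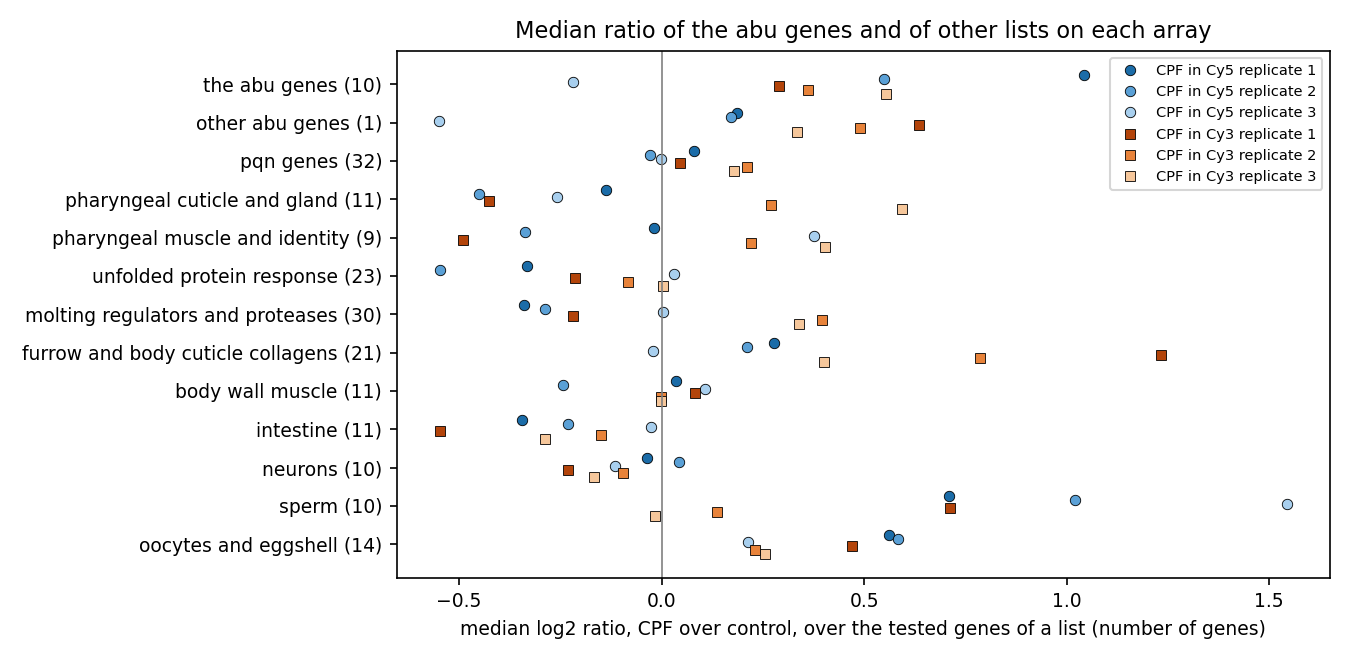
Median log2 ratio of CPF over control over the tested genes of each list on each of the 6 arrays (circles, CPF in Cy5; squares, CPF in Cy3), with the number of genes in parentheses. The abu genes run between -0.22 and 1.04, the collagens between -0.02 and 1.23 and the sperm genes between -0.02 and 1.54, each widely spread over the arrays.

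Genes of the molting cycle are given because abu expression goes with the molts. Of 30 molting regulators and proteases, 1 was called higher and 0 lower (7 and 4 at an unadjusted p under 0.05), with a median of -0.10. The called one was the hedgehog-like gene wrt-4 (0.91 ± 0.17), and the next by p was mlt-8 (0.85 ± 0.19). Of 21 furrow and body cuticle collagens, 1 was called higher and 0 lower (12 and 0 at an unadjusted p under 0.05), 18 had a positive ratio, and the median was 0.76. The called one was dpy-3 (0.87 ± 0.10), and bli-6 had 1.39 ± 0.33. The collagen median was highest on CPF in Cy3 replicate 1 (1.23), where the abu median was 0.29. When that array was dropped the collagen median was 0.37 with 5 genes called, and when CPF in Cy3 replicate 3 was dropped 11 were called. The part of molting stage in the abu ratios was not tested.

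Markers of the other tissues in the whole animals were read from the same fit. Of 10 tested sperm genes, 2 were called higher and 0 lower (7 and 0 at an unadjusted p under 0.05), 10 had a positive ratio, and the median was 0.59. The mean log2 signal of the list lay between 12.27 and 13.97 in the CPF channels, against 10.96 and 13.42 in the control channels. The called ones were msp-63 (0.64 ± 0.12) and msp-50 (0.82 ± 0.18), genes of the major sperm protein, and these calls gave way to 0 when any of 4 arrays (the CPF in Cy5 arrays and CPF in Cy3 replicate 2) was dropped and to 5 when either of the other 2 was. The sperm median stayed between 0.49 and 0.70 throughout, and the calls over all probes fell to between 3 and 24 higher without any of those 4 arrays. Calls over all probes rose to 418 higher without CPF in Cy3 replicate 1 and to 967 without CPF in Cy3 replicate 3. The sperm median was highest on CPF in Cy5 replicate 3 (1.54), where the abu median was lowest. Of 14 tested oocyte and eggshell genes, 1 was called higher and 0 lower (9 and 0 at an unadjusted p under 0.05), with a median of 0.36. It was oma-2 (0.57 ± 0.12), which acts in oocyte maturation, and the next was perm-4 (0.76 ± 0.17). Of 11 tested intestine genes, 0 were called (1 higher and 6 lower at an unadjusted p under 0.05), with a median of -0.30, and cpr-6 had -0.45 ± 0.11 and ges-1 -0.42 ± 0.11. Body wall muscle (11 genes, median 0.01, with myo-3 at -0.41 ± 0.13 and act-4 at 0.36 ± 0.16) and neurons (10 genes, median -0.13, with egl-21 at -0.48 ± 0.13 and ida-1 at 0.66 ± 0.27) had 0 genes called in limma, with 0 higher and 1 lower for muscle and 1 higher and 3 lower for neurons at an unadjusted p under 0.05. The muscle and neuron values depend on the choice of the brightest probe. For lev-11 it had -0.21, and the other tested probes had 0.35 to 1.34, of which that at 0.73 was called (limma, adjusted p 0.0249). Dimmer tested probes of snb-1 (0.75 against -0.29), rab-3 (0.43 against -0.26) and egl-3 (0.43 against -0.38) were also above 0. That of act-4 was below 0 (-0.19 against 0.36). The part of these tissues and of the animals' stage in the abu ratios was not tested.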

How the data were processed

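Whole nematodes were measured on 6 dual-channel arrays. The authors scanned and quantified them in ScanArray Express per the file headers, and the deposited intensity (mean and median of each spot, with local background) was not normalised. The deposited percent of saturated pixels comes from the same software. A table of log2 ratios, also deposited, came from limma 3.2.3 according to the submitters' processing notes, and served as an alternative with columns assigned to the arrays they matched and signs turned. Here intensity was corrected by normexp (offset 50) and normalised by loess within and Aquantile between arrays, without 742 control and blank spots. A probe was tested where its median lay over 2 background SDs above background in 6 or more of the 12 channels, and precision is limited by the number of arrays. Ratios were fitted in limma 3.58.1 (R 4.3.3, moderated, 2-sided) with CPF and dye terms and Benjamini-Hochberg adjustment over 11033 probes (threshold 0.05). The fit was tested on simulated data. Spots were named by sequence name (21382) or gene number (31), and 1077 kept the file's name. Figures used matplotlib 3.10.9 (Python 3.11.15).

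The study states a linear model with a toxicant term and a p threshold of 0.01, read here as single channels; it was an alternative. The brightest tested probe stood for a gene. Named genes were all probes of the family, from each list up to 4 called genes with 1 sign on all arrays or, where fewer than 2 met this (as in every list), the 2 with the smallest p, and the 10 genes with the most similar profile. The members and the 12 gene lists were chosen with earlier results of these data known. Other samples are not analysed here. Per the methods each sample pooled several dishes, and p-values measure the spread between these samples.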

Additional observations from a re-analysis of the deposited data

Results flagged for a closer look

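Of 16 sets of 6 array values checked for a value far from the rest (Dixon's test), 3 had one. Chance gives about 1 in 20 for independent sets. These sets share the arrays and in part the genes, so their count cannot be compared with that rate. The third probe of abu-8 reached a CPF over control ratio of 2.63 (log2) on CPF in Cy3 replicate 1, against 1.12 on the next highest array. The second probe of abu-8 had -0.19 on CPF in Cy5 replicate 3, against 0.67 on the next lowest array, and abu-10 had 0.052 there, against 0.43. The gap of these last 2 was only just over the critical share of the range (0.627 and 0.6254).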

How the results depend on the processing

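Up to 23 alternative settings were run, 2 of them (print-tip loess and the dimmest probe of a gene) chosen after seeing the data. Counts and medians over the abu genes were recomputed under all 23, the ratios of single abu probes under 19 to 21, calls over all probes under 21 and dye effects under 17. Abu probes untested in a setting dropped out of its count. The median ratio over the 10 abu genes was positive in all 23 (0.24 to 0.56), and no abu gene was called lower. Dropping the dye term, the replicate block and single channels cannot change the median, and the deposited table's sign was assigned. The number called was not stable. For the abu family, against 1 gene and 5 probes called higher, there were 0 and 0 with median centring, the single-channel model or the CPF in Cy3 arrays alone, 0 and 2 without background correction, 0 and 1 without a filter, 1 and 1 with probes above background in all 12 channels, 1 and 2 with plain subtraction, 1 and 3 without the dye term, 3 and 8 with scale normalisation, 2 and 5 with the deposited table, 9 and 14 with array weights, 4 genes with the mean of probes and 3 with the dimmest probe. The array weights did not converge and put 27.4 on CPF in Cy3 replicate 2, so this setting rests mostly on 1 array. Leaving out 1 array gave 0 to 2 genes and 0 to 7 probes: 0 and 0 without CPF in Cy5 replicate 1, CPF in Cy5 replicate 2 or CPF in Cy3 replicate 2, 1 and 2 when CPF in Cy5 replicate 3 was omitted, 2 and 7 when CPF in Cy3 replicate 1 was, and 1 and 6 when CPF in Cy3 replicate 3 was. In the same order, 3, 5, 7, 24, 418 and 967 probes of all were called higher. Aquantile leaves ratios as they are, so omitting it is no separate check. The cause of the other changes was not tested.

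abu-13 turned to 0.11 with median centring, 0.086 with the deposited table, 0.10 with array weights, 0.25 in the CPF in Cy3 arrays alone and 0.046 with print-tip loess, and ran between -0.074 and 0.091 over the leave-outs (0.091 when CPF in Cy5 replicate 3 was omitted, 0.025 for CPF in Cy3 replicate 1). abu-14 turned to -0.17 in the CPF in Cy5 arrays alone. Calls in other lists moved too. With 1 array left out, 0 to 7 pqn genes, 0 to 4 molting genes, 1 to 11 collagens, 0 to 5 sperm genes and 0 to 3 oocyte genes were called higher, against 1, 1, 1, 2 and 1. Over all alternatives the medians of the unfolded protein response and intestine lists stayed below 0 and those of the collagens (0.06 to 0.86), sperm genes and oocyte genes above 0. A dye effect was called for 1 abu probe with the deposited table and 4 with array weights, against 0. Over all probes 147 were called higher and 239 lower, with 0 to 2760 higher and 8 to 2245 lower over the alternatives, and 3 to 967 and 55 to 388 when 1 array was left out. The single-channel model at the study's threshold of 0.01 called 1 abu probe higher and 0 lower, beside 13 and 76 of all probes. Same-numbered arrays deviated together with correlations of 0.103, -0.0788 and 0.271, so the pairing is not shown. With the replicate block 1 gene and 6 probes were called (228 probes higher and 242 lower in all).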
